A study of Homo sapiens with 9 samples.

Results

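RPL6 is a protein of the large subunit of the cytosolic ribosome, and the comparison described here set cells carrying the hairpin shRPL6-2, aimed at RPL6, against cells carrying the control hairpin shCont. The 6 libraries were taken by their labels, 3 with shRPL6-2 and 3 with shCont, out of 9 in the series, and 16146 of the 60683 genes in the count table had enough reads to be tested. The columns of the count table have shortened names, and their match to these labels was read from the hairpin and replicate digits and from the letters NC, taken as shCont, since no label states it. The cells were MHCC97H, a human hepatocellular carcinoma line of high metastatic potential, and hairpins were brought in by lentivirus. The shRPL6-2 cells were labelled RPL6 knockdown and the shCont cells WT, and the labels name no other difference between them. The other 3 libraries carried a different hairpin to the same gene, shRPL6-1, and were used for the shared estimate of spread and for a direct contrast of the hairpins. The study asked which transcripts change when RPL6 is depleted from a metastatic liver cancer cell, and RNA was poly-A selected before sequencing. Whether replicates within a group are separate infections or cultures is not stated in the sources used here, and a p-value therefore speaks only to the scatter among the libraries sequenced, part of which may be technical.

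As background, a short hairpin RNA is cut in the cell to a short duplex, 1 strand of which guides the RNA-induced silencing complex to messengers that pair with it. A guide that pairs along its whole length directs cleavage of its target. Pairing of the seed alone, guide bases 2 to 8, with the 3′ UTR of an unrelated messenger can lower that messenger in the way a microRNA does. Ribosomal proteins are needed for assembly of the ribosomal subunits, and in human cells a shortage of several of them is known to free RPL5 and RPL11, which bind MDM2 and so stabilise p53. The hairpins are given below as the study listed them, with the target as a stretch of the RPL6 messenger and the antisense strand with the seed in capitals, because the seed is compared with the changed genes further on.
shRPL6-2 target: gctggctagtggcttatta
shRPL6-2 antisense: uAAUAAGCcacuagccagc
shRPL6-1 target: ggtggttaaacttcgcaaa
shRPL6-1 antisense: uUUGCGAAguuuaaccacc
The shRPL6-2 target lay in the coding part of exon 5 of RPL6, at chr12:112406304-112406322 on the minus strand of GRCh38, and the shRPL6-1 target in the coding part of exon 3, at chr12:112408243-112408261. Both strands were 19 bases long, with 9 G or C bases in shRPL6-2 and 8 in shRPL6-1. The whole shRPL6-2 target was also present in 3 processed copies of RPL6 elsewhere in the genome, of which RPL6P27 and AC115223.1 had enough reads to be tested. Those 2 share near-identical sequence with RPL6, so their reads cannot be counted apart with certainty.

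Each library held 13638468 to 15146181 counts in the groups compared. Levels below are CPM, counts scaled to the effective size of the library, and a change is a log2 fold change with its standard error, called when the adjusted p of the edgeR quasi-likelihood test was under 0.05. RPL6 itself stood at 12.3, 11.7 and 21.4 CPM in shRPL6-2 libraries, against 499.5, 518 and 478 CPM in shCont libraries (log2 fold change −5.04 ± 0.25, adjusted p = 3.43e-06). The groups were far apart, and the level left was 3.04% of that in shCont cells. Of the lists of cell type markers, 1 of 10 hepatocyte markers had enough reads to be tested. Albumin was at 0 counts in every library, and AFP and GPC3, the usual markers of hepatocellular carcinoma, had at most 11 and 2 counts, so the liver label of this line was not borne out by its defining secreted proteins. HNF4A, a hepatocyte transcription factor, was present at 110 to 162 counts in shRPL6-2 libraries and 103 to 144 counts in shCont libraries. The biliary keratin KRT7 was abundant, at 31747 to 53612 counts with shRPL6-2 and 26621 to 54468 counts with shCont. The other biliary markers, KRT19, EPCAM and SOX9, had at most 28, 41 and 46 counts in these libraries, so the biliary list as a whole was not abundant. Summed leukocyte markers reached 50 to 71 counts with shRPL6-2 and 52 to 105 counts with shCont, with CD3E at 0 throughout. Summed fibroblast and endothelial markers came to 1066 to 1233 counts with shRPL6-2 and 1679 to 2200 counts with shCont, mostly COL1A1. In RNA from whole cultures, fewer cells of a kind and less RNA per cell cannot be told apart.

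With shRPL6-2, 2145 genes were higher than with shCont, which is 13.3% of those tested, and 2354 genes were lower, which is 14.6%. Of these, 757 were higher by 2-fold or more, 1075 were lower by 2-fold or more, and 2667 had changed by less than 2-fold. The median log2 fold change over all genes tested was −0.03. With library totals in place of the trimmed-mean scaling it was −0.19, and the split of calls was then 1615 higher against 3128 lower, so changes below are read against the median of all genes. Over 19 other ways of running the test, 506 higher and 537 lower genes kept their call in every one.

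The calls followed the GC content and the length of the transcript. In the quintile of genes with the lowest GC content, 2.88% were higher and 32.5% lower with shRPL6-2, and in the quintile with the highest GC content 25.2% were higher and 1.88% lower. The quintile of shortest transcripts had 24.9% higher and 3.94% lower, while that of the longest had 4.41% higher and 27.9% lower. Within single libraries, the deviation of a gene from its mean over all 9 libraries was correlated with GC content across genes at Spearman rho 0.34, 0.60 and 0.11 in shRPL6-2 libraries 1 to 3, against −0.55, −0.53 and 0.25 in shCont libraries 1 to 3. The genes are not independent of each other, and shCont replicate 3 differed in sign from the rest of its group. A second fit removed each library's own trend with GC content and length, and then 2208 genes, or 13.7%, were higher and 1721 genes, or 10.7%, were lower. In that fit 1502 of the 2145 higher genes and 1297 of the 2354 lower genes were still called in the same direction. The part of this gradient in any one result was not tested further, so the GC- and length-corrected count is given beside each list below.

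**Figure D1:**
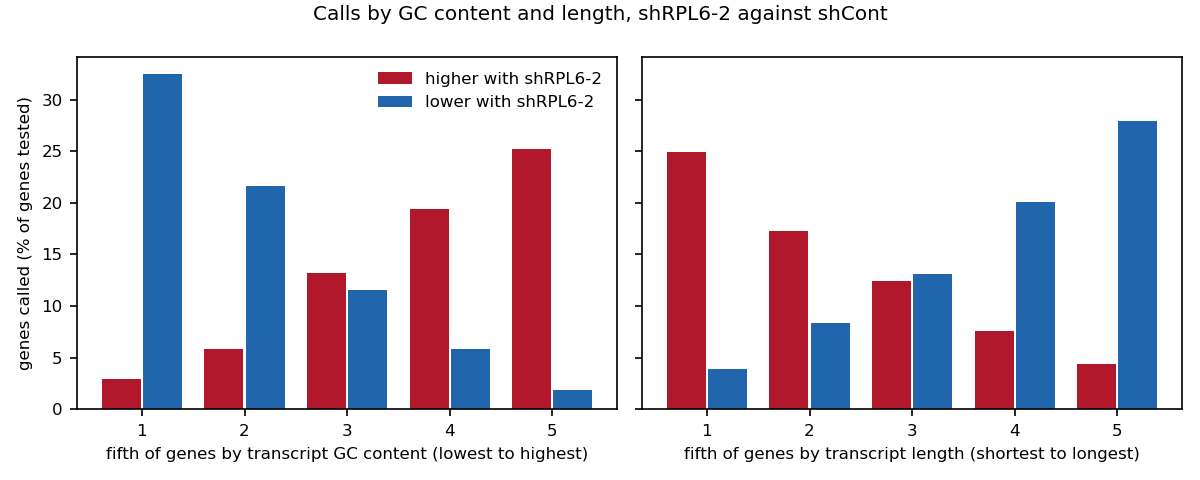
Share of tested genes called higher (red) or lower (blue) with shRPL6-2 against shCont, in percent, by quintiles of transcript GC content (left) and of transcript length (right). Higher calls ran from 2.88% in the lowest GC quintile to 25.2% in the highest, and lower calls from 32.5% to 1.88%.

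Calls also depended on single libraries. By the chi-square per degree of freedom between the counts of 2 libraries, shCont replicates 1 and 2 were closest to each other, at 10.3. Each of them against shCont replicate 3 gave 66.3 and 66.4, and pairs of shRPL6-2 libraries gave 23.6 to 57.5. Without shCont replicate 1 there were 728 higher and 839 lower genes, without shCont replicate 2 there were 650 and 728, and without shCont replicate 3 there were 3636 and 3565. Leaving out shRPL6-2 replicate 1 gave 1212 higher and 1141 lower genes, leaving out replicate 2 gave 886 and 916, and leaving out replicate 3 gave 2194 and 2483. Of the 4499 genes called, 4107 had no overlap between shRPL6-2 and shCont libraries, so that a called gene named below without overlap is like most others called. List counts moved with the same libraries. Those that a single library moved by more than 1.5 times are given for the lists described most fully, mostly in 1 direction only. Counts in the other direction often moved too, so a count with no such values is not thereby stable. Without shCont replicate 3, for example, N-glycan genes called higher went from 6 to 14 and integrated stress response genes called higher from 7 to 13. Without shCont replicate 1, DNA repair genes called higher went from 7 to 2. All list counts are to be read against the shares of all genes tested. These were 13.3% higher and 14.6% lower, or 13.7% and 10.7% after the GC and length correction. Genes called below against shCont kept their call in all 19 alternatives unless it is said that they did not. Most were named by size of change or adjusted p within their list, and CDKN1A, CYFIP2, EDA2R, TIGAR, RRM2B, MDM2, EDEM3, XBP1, PPP1R15A, CHAC1, GDF15, FBL, RRP9, NOC2L, EIF3F, EEF2, MRPL17, ATR, LIG4, AGO2, OASL, ISG20 and IRF7 were picked after their values were seen.

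The largest rises among protein-coding genes outside sterol, fatty acid and ribosomal protein genes are given in 2 sets, those of abundant or broadly used transcripts first. GANAB, the catalytic subunit of glucosidase II that trims glucose from new N-glycans, had 787, 887 and 758 CPM in shRPL6-2 libraries, against 139, 135 and 206 CPM in shCont libraries (log2 fold change 2.34 ± 0.19, adjusted p = 0.000208). TXNIP, an inhibitor of thioredoxin that also limits uptake of glucose, stood at 416, 327 and 546 CPM with shRPL6-2, against 105, 109 and 84.7 CPM with shCont (log2 fold change 2.11 ± 0.21, adjusted p = 0.00076). Both were higher in all 3 shRPL6-2 libraries than in any shCont library, which the choice of the largest changes required. EMC6, a subunit of the complex that inserts membrane proteins into the endoplasmic reticulum, had 122, 152 and 109 CPM with shRPL6-2, against 28.97, 26.2 and 36.6 CPM with shCont (log2 fold change 2.06 ± 0.19, adjusted p = 0.000452). DET1, an adaptor of a cullin ubiquitin ligase, was a rarer transcript, at 1.95, 3.27 and 2.77 CPM with shRPL6-2, against 0.733, 0.422 and 0.674 CPM with shCont (log2 fold change 2.12 ± 0.32, adjusted p = 0.00368).

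Other members of this group were genes usually read in other tissues and rare here. CRB1, a polarity protein of the retina, was measured at 9.19, 6.21 and 4.35 CPM with shRPL6-2, against 0.599, 0.362 and 2.43 CPM with shCont (log2 fold change 2.55 ± 0.57, adjusted p = 0.0112), and CPA3, the carboxypeptidase of mast cells, at 5.29, 2.45 and 5.398 CPM with shRPL6-2, against 1.07, 1.33 and 0.809 CPM with shCont (log2 fold change 2.03 ± 0.34, adjusted p = 0.00499). LCN10, a lipocalin, and TSSK6, a testis kinase, had log2 fold changes of 2.04 and 2.01. The values of these 4 rest on few reads. NEDD8-MDP1 and RPS10-NUDT3 are readthrough genes that share exons with their neighbours, so their log2 fold changes of 3.68 and 2.34 are uncertain. RPS10-NUDT3 lost its call without shCont replicate 2. PAPPA2, a protease of insulin-like growth factor binding proteins, had a log2 fold change of 2.47 and lost its call without shCont replicate 2 or shRPL6-2 replicate 1. MAMDC2, at 2.67, lost it without shCont replicate 1 or 2 or shRPL6-2 replicate 2. AL713999.1, AL355987.1 and AL355385.2 were also in this group, at log2 fold changes of 4.25, 3.65 and 2.63. The rise of AL713999.1 was the largest of the group. How the calls of AL713999.1, AL355987.1 and AL355385.2 fared in the alternatives is not given.

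The largest falls took in p53-induced genes, signalling adaptors and enzymes. SERPINB5, the serpin also called maspin, had 1.32, 1.22 and 0.975 CPM in shRPL6-2 libraries, against 16.2, 19.2 and 9.98 CPM in shCont libraries (log2 fold change −3.68 ± 0.36, adjusted p = 0.000689). TP53INP1, a p53-induced regulator of cell death and autophagy, had 0.835, 1.06 and 1.57 CPM with shRPL6-2, against 14.7, 14.5 and 6.001 CPM with shCont (log2 fold change −3.34 ± 0.39, adjusted p = 0.00156), and ZMAT3, a p53-induced RNA-binding zinc finger protein, had 0.905, 2.04 and 3.82 CPM with shRPL6-2, against 26.97, 23.1 and 11.6 CPM with shCont (log2 fold change −3.19 ± 0.48, adjusted p = 0.00355). As with the rises, the choice of genes required groups that do not overlap. SH2B3, an adaptor that restrains cytokine receptor signalling, fell to 3.48, 2.94 and 2.77 CPM with shRPL6-2, against 27.1, 28.6 and 21.3 CPM with shCont (log2 fold change −3.06 ± 0.24, adjusted p = 0.000207). The kinases SGK3 and RPS6KA5 (MSK1, which acts on histones and CREB) had log2 fold changes of −2.90 and −2.60. SLFN5, a schlafen family member that interferon induces, stood at 6.61, 9.55 and 5.62 CPM with shRPL6-2, against 59.6, 60.04 and 52.7 CPM with shCont (log2 fold change −2.99 ± 0.39, adjusted p = 0.00216).

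ACADM, the medium-chain acyl-CoA dehydrogenase of fatty acid oxidation, had 9.12, 7.59 and 12.1 CPM in shRPL6-2 libraries, against 78.8, 65.8 and 31.2 CPM in shCont libraries (log2 fold change −2.60 ± 0.32, adjusted p = 0.00172). NID1, nidogen of the basement membrane, had 1.18, 1.31 and 1.799 CPM with shRPL6-2, against 8.46, 8.51 and 9.04 CPM with shCont (log2 fold change −2.59 ± 0.24, adjusted p = 0.000544). The protease gene FAM111B and the endoplasmic reticulum cochaperone DNAJB9 had log2 fold changes of −2.52 and −2.81. The readthrough gene ARL2-SNX15 had 0 counts in all 3 shRPL6-2 libraries, shares exons with both its neighbours and is given with no fold. AC022414.1, ANKRD46 and CDRT1 were also among the largest falls, at log2 fold changes of −6.70, −3.08 and −2.50. Apart from ARL2-SNX15, the fall of AC022414.1 was the largest. How the calls of AC022414.1, ANKRD46 and CDRT1 fared in the alternatives is not given.

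**Figure D2:**
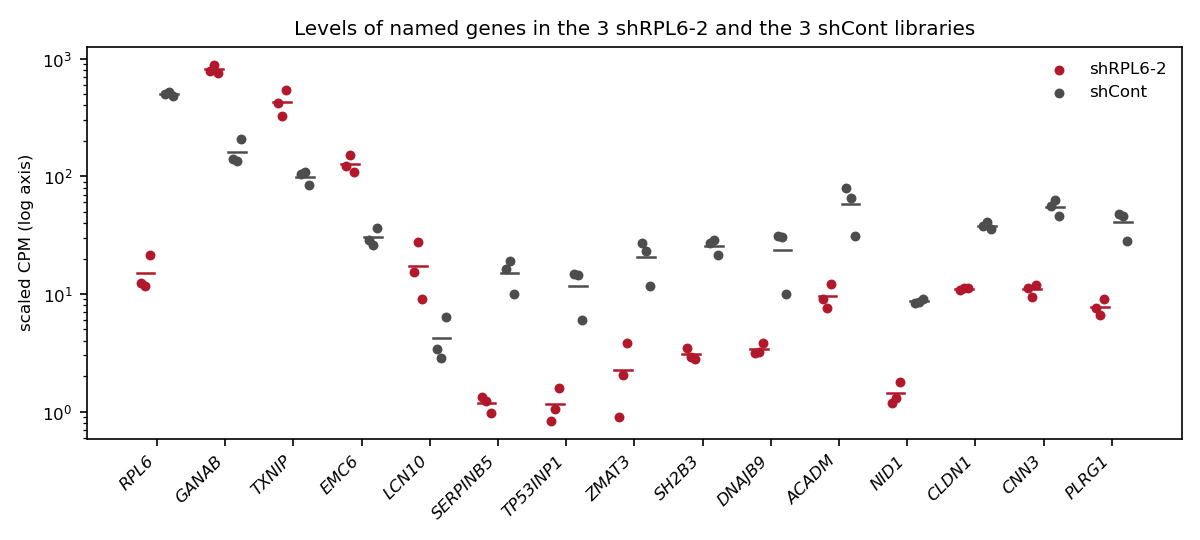
CPM on a log scale in each library for RPL6 and 14 other named genes, shRPL6-2 to the left of shCont, with a line at the arithmetic mean of each group. Each gene shown had no overlap between the 3 shRPL6-2 and the 3 shCont libraries. The choice of the largest changes against shCont required this, but RPL6, CLDN1, CNN3 and PLRG1 were chosen otherwise.

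Genes that p53 switches on were lower as a group. Of 35 tested p53 targets, 17 fell and 0 rose, against 14.6% and 13.3% of all genes, and the median log2 fold change of the list was −0.65. With GC content and length corrected, 22 fell and 2 rose, with a median of −0.60. In every alternative 12 remained lower, among them CDKN1A (p21, the inhibitor of cyclin-dependent kinases), BTG2, CCNG1, POLH (a polymerase that copies past damaged bases) and SESN1. CDKN1A had 74.1, 53.4 and 54.4 CPM in shRPL6-2 libraries, against 278, 127 and 172 CPM in shCont libraries (log2 fold change −1.66 ± 0.28, adjusted p = 0.00467), CYFIP2 had 1.74, 2.61 and 5.17 CPM with shRPL6-2, against 16.8, 18.7 and 13.96 CPM with shCont (log2 fold change −2.38 ± 0.36, adjusted p = 0.00368) and EDA2R, a receptor of the TNF receptor family, had 0.626, 0.327 and 0.375 CPM with shRPL6-2, against 3.196, 3.14 and 1.62 CPM with shCont (log2 fold change −2.55 ± 0.54, adjusted p = 0.0099). The groups did not overlap in any of these 3. TIGAR, which lowers glycolytic flux, and RRM2B, the p53-inducible ribonucleotide reductase subunit, had log2 fold changes of −1.49 and −1.68. MDM2, the ligase that p53 induces and that degrades it, stood at 33.8, 32.9 and 48.8 CPM with shRPL6-2, against 85.04, 91.1 and 48.6 CPM with shCont (log2 fold change −0.96 ± 0.24, adjusted p = 0.0182), with shRPL6-2 replicate 3 level with shCont replicate 3. The call of MDM2 did not hold in every alternative. Leaving out any 1 library moved the count of p53 targets called lower by no more than 1.5 times.

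The unfolded protein response, which raises chaperones of the endoplasmic reticulum when proteins misfold there, was also lower in many of its members. Of 33 tested genes 14 fell and 0 rose, the median was −0.43, and 14 fell and 1 rose after the correction. DNAJB9, induced by the XBP1 branch, had 3.13, 3.18 and 3.82 CPM in shRPL6-2 libraries, against 31.2, 30.3 and 9.91 CPM in shCont libraries (log2 fold change −2.81 ± 0.39, adjusted p = 0.00268), and HSPA5, the main chaperone of this compartment (BiP), had 641, 583 and 713 CPM with shRPL6-2, against 1216, 1259.8 and 984 CPM with shCont (log2 fold change −0.84 ± 0.15, adjusted p = 0.00619). EDEM3, a mannosidase that marks glycoproteins for disposal, had 11.3, 7.02 and 13.6 CPM with shRPL6-2, against 39.1, 41.4 and 18.3 CPM with shCont (log2 fold change −1.62 ± 0.33, adjusted p = 0.00851). In all 3 genes the shRPL6-2 libraries lay below every shCont library. SEL1L, of the export channel for misfolded proteins, was the other member lower in every alternative. XBP1 itself was not called, at 119.7, 162 and 121 CPM with shRPL6-2, against 159, 136 and 183 CPM with shCont (log2 fold change −0.25 ± 0.19, adjusted p = 0.341). Unfolded protein response genes called lower numbered 8 without shCont replicate 1 and without shRPL6-2 replicate 1 and 6 without shCont replicate 2. Among 47 genes of N-glycan synthesis and trimming 6 rose, GANAB the most of them, and 10 fell, LMAN1 (a cargo receptor for glycoproteins, −1.92) among them in every alternative. After the correction 9 rose and 5 fell. N-glycan genes called lower numbered 2 without shCont replicate 1, 1 without shCont replicate 2, 6 without shRPL6-2 replicate 1 and 3 without shRPL6-2 replicate 2.

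The integrated stress response, in which phosphorylated initiation factor eIF2 favours translation of ATF4, moved both ways. Of 35 tested genes 7 rose and 9 fell, with a median of 0.03, and 7 rose and 6 fell after the correction. PPP1R15A (GADD34, the phosphatase subunit that ends the response) had 154, 169 and 134 CPM in shRPL6-2 libraries, against 27.7, 30.9 and 70.1 CPM in shCont libraries (log2 fold change 1.83 ± 0.31, adjusted p = 0.00526), and DDIT3 (CHOP, a transcription factor of stressed cells) had 19.1, 28.1 and 17.9 CPM with shRPL6-2, against 8.79, 8.03 and 8.29 CPM with shCont (log2 fold change 1.37 ± 0.21, adjusted p = 0.0037). TRIB3, a pseudokinase induced by both ATF4 and CHOP, had 94.5, 116 and 86.97 CPM with shRPL6-2, against 44.02, 45.1 and 57.04 CPM with shCont (log2 fold change 1.03 ± 0.17, adjusted p = 0.00468). These were higher in every shRPL6-2 library than in any shCont library, as was ATF4 itself (log2 fold change 1.03). In contrast, ASNS, the asparagine synthetase that ATF4 is known to induce, fell to 6.61, 8.08 and 12.1 CPM with shRPL6-2, against 24.5, 20.4 and 15.6 CPM with shCont (log2 fold change −1.18 ± 0.25, adjusted p = 0.0102). SLC38A1, a glutamine carrier, fell to 202, 157 and 273 CPM with shRPL6-2, against 613, 598 and 325 CPM with shCont (log2 fold change −1.28 ± 0.28, adjusted p = 0.0108). Integrated stress response genes called lower numbered 2 without shCont replicate 1 or 2 and without shRPL6-2 replicate 1 and 4 without shRPL6-2 replicate 2. CHAC1 and GDF15, further ATF4 targets, had log2 fold changes of −0.95 and −0.56 and were called lower, though not in every alternative.

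**Figure D3:**
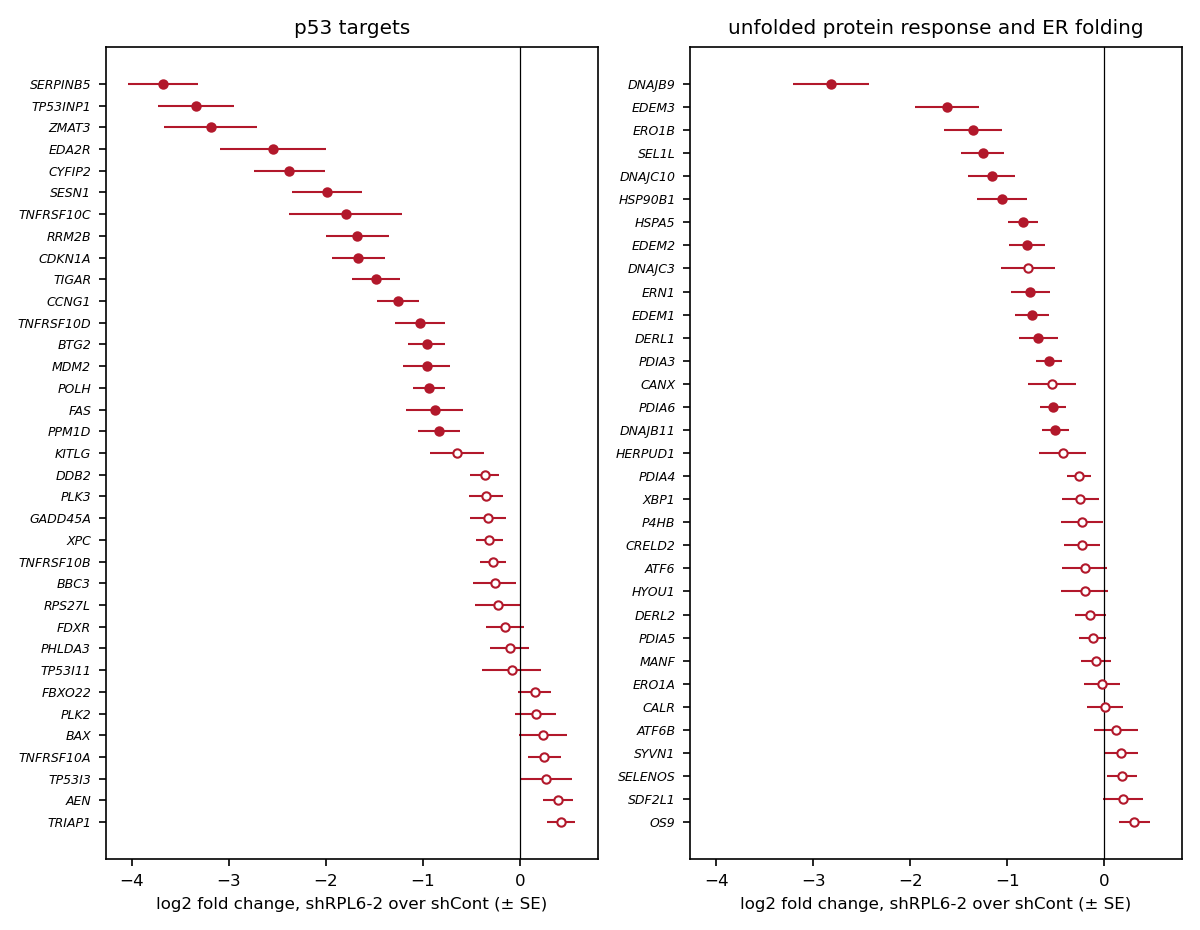
Log2 fold change of each tested member of the p53 target and unfolded protein response lists, shRPL6-2 against shCont, with bars of 1 standard error, filled circles for called genes and open circles for the others. The p53 list had 17 of 35 members lower and 0 higher, and the unfolded protein response list 14 of 33 lower and 0 higher.

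Cytosolic chaperones fell more often than they rose. Of 34 tested, 11 fell and 4 rose, with a median of −0.39, and 9 fell and 4 rose after the correction. HSPA8, the constitutive HSP70, had 478, 332 and 556 CPM in shRPL6-2 libraries, against 1279, 1309.7 and 969.99 CPM in shCont libraries (log2 fold change −1.38 ± 0.21, adjusted p = 0.00345). CCT8, a subunit of the chaperonin that folds actin and tubulin, had 139, 111 and 139 CPM with shRPL6-2, against 321, 299.9 and 188 CPM with shCont (log2 fold change −1.06 ± 0.20, adjusted p = 0.00683). Both kept their call in every alternative, with AHSA1, the activator of HSP90. HSF1, the transcription factor of the heat shock response, was among the 4 that rose (0.98), but was no longer called after the correction (adjusted p = 0.0519). Chaperones called lower numbered 3 without shCont replicate 1 or 2, 19 without shCont replicate 3, 5 without shRPL6-2 replicate 1 and 4 without shRPL6-2 replicate 2.

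Factors that build ribosomes rose in part. Of 56 tested, 20 rose and 0 fell, with a median of 0.19, and 15 rose and 0 fell after the correction. FBL, fibrillarin, which methylates ribosomal RNA, had 281, 298 and 214 CPM in shRPL6-2 libraries, against 95.6, 88.8 and 169 CPM in shCont libraries (log2 fold change 1.16 ± 0.24, adjusted p = 0.00899). RRP9, of the same small nucleolar particle system, had 77.1, 104 and 65.9 CPM with shRPL6-2, against 30.03, 32.3 and 50.6 CPM with shCont (log2 fold change 1.13 ± 0.24, adjusted p = 0.00991), and NOC2L, a nucleolar protein, had 565, 667 and 553 CPM with shRPL6-2, against 253, 253 and 387 CPM with shCont (log2 fold change 1.00 ± 0.19, adjusted p = 0.00677). In all 3 the groups did not overlap. Those higher in every alternative were FBL, RRP9, NOC2L, TCOF1, MRTO4, NLE1 and RRP1. Ribosome biogenesis factors called higher numbered 11 without shCont replicate 1, 9 without shCont replicate 2 and 12 without shRPL6-2 replicate 2. Without shCont replicate 3, 22 were higher and 12 lower, so that the count of 0 lower depended on that library.

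Of 46 translation factors, 10 rose and 6 fell. EIF3F, a subunit of the initiation factor that holds the small subunit, had 117, 218 and 117 CPM in shRPL6-2 libraries, against 44.7, 43.9 and 73.1 CPM in shCont libraries (log2 fold change 1.48 ± 0.30, adjusted p = 0.00813), and EEF2, the elongation factor that moves the ribosome along, had 3044, 3600.2 and 3389.8 CPM with shRPL6-2, against 1726, 1759.5 and 2391 CPM with shCont (log2 fold change 0.77 ± 0.17, adjusted p = 0.0109). EIF1, EIF3F, EIF3G, EIF4A1 and EEF2 were higher in every alternative, and no translation factor was lower in every alternative. After the correction 13 rose and 2 fell. Translation factors called higher numbered 5 without shCont replicate 1 or 2, 17 without shCont replicate 3 and 6 without shRPL6-2 replicate 2. In a list of long noncoding RNAs, hosts of small nucleolar RNAs and others, 8 of 30 rose and 1 fell, before and after the correction, and the median was 0.42. The 1 that fell before it was TUG1, which is not such a host, and its call did not hold in every alternative. GAS5, the host gene that accumulates when its decay by translation slows, had 261, 297 and 251 CPM with shRPL6-2, against 92.03, 85.8 and 131 CPM with shCont (log2 fold change 1.39 ± 0.18, adjusted p = 0.00202), and GAS5, SNHG8 and ZFAS1 were higher in every alternative. Members of this noncoding list called higher numbered 3 without shCont replicate 1 or 2 and 4 without shRPL6-2 replicate 2.

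Nuclear genes for the mitochondrion rose widely. Of 35 tested nuclear genes of respiratory complex I, which passes electrons from NADH to ubiquinone, 22 rose and 1 fell, with a median of 0.68. Complexes II to V had 21 of 38 higher and 0 lower, with a median of 0.58, and mitochondrial ribosomal proteins had 31 of 76 higher and 1 lower, with a median of 0.52. After the correction 19, 18 and 32 of these rose. NDUFB10, an accessory subunit of complex I, had 172, 216 and 146 CPM in shRPL6-2 libraries, against 69.1, 62.2 and 98.2 CPM in shCont libraries (log2 fold change 1.22 ± 0.21, adjusted p = 0.00499). SDHB, the iron-sulfur subunit of complex II, had 177, 198 and 174 CPM with shRPL6-2, against 85.4, 85.1 and 114 CPM with shCont (log2 fold change 0.95 ± 0.16, adjusted p = 0.00467). MRPL17, of the large mitochondrial subunit, had 174, 239.6 and 164 CPM with shRPL6-2, against 63.7, 62.5 and 111 CPM with shCont (log2 fold change 1.29 ± 0.25, adjusted p = 0.00756). The groups did not overlap in these 3 genes. Import and dynamics genes had 16 of 37 higher and 1 lower, and 19 higher and 0 lower after the correction, with TOMM22, a receptor of the outer membrane, at 130.03, 159.6 and 145 CPM with shRPL6-2, against 49.1, 50.99 and 54.3 CPM with shCont (log2 fold change 1.49 ± 0.15, adjusted p = 0.000689). Import and dynamics genes called higher numbered 7 without shCont replicate 1, 6 without shCont replicate 2 and without shRPL6-2 replicate 2 and 9 without shRPL6-2 replicate 1. Those called lower numbered 5 without shCont replicate 3.

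The respiratory counts moved with particular libraries. Complex I genes called higher numbered 5 without shCont replicate 1, 4 without shCont replicate 2, 13 without shRPL6-2 replicate 1 and 6 without shRPL6-2 replicate 2. Of the complex I genes only NDUFB9, NDUFB10 and NDUFS4 were called in every alternative, of complexes II to V ATP5MC1, ATP5MG, COX6A1 and SDHB, and of the mitochondrial ribosomal proteins 13. Genes of complexes II to V called higher numbered 10 without shCont replicate 1, 7 without shCont replicate 2 and 11 without shRPL6-2 replicate 2. Mitochondrial ribosomal protein genes called higher numbered 17 without shCont replicate 1, 15 without shCont replicate 2 and 18 without shRPL6-2 replicate 2. Of 13 protein-coding transcripts of the mitochondrial genome 0 rose and 3 fell (MT-ND4, MT-ND4L and MT-CO1), with a median of −0.29, and 0 rose and 4 fell after the correction. None of the 3 calls held in every alternative. These transcripts called lower numbered 1 without shCont replicate 1 or 2, 0 without shRPL6-2 replicate 1 or 2 and 6 without shRPL6-2 replicate 3. Without shCont replicate 3, 2 of them were higher. Mitochondrial transfer RNA genes, short features in a poly-A library, rose in 10 of 21, and in 2 of 21 after the correction.

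Protein turnover genes moved both ways. Of 40 proteasome genes 13 rose and 5 fell, and 9 rose and 4 fell after the correction. PSMB6, a catalytic subunit of the core, had 309.6, 397 and 326 CPM in shRPL6-2 libraries, against 141, 152 and 221 CPM in shCont libraries (log2 fold change 1.01 ± 0.20, adjusted p = 0.00783), and PSMC3, an ATPase of the cap, had 438, 546 and 394 CPM with shRPL6-2, against 181, 181 and 282 CPM with shCont (log2 fold change 1.10 ± 0.21, adjusted p = 0.00664). PSMC6, another ATPase of the same ring, went the other way, at 23.2, 15.3 and 19.9 CPM with shRPL6-2, against 66.4, 63.3 and 35.9 CPM with shCont (log2 fold change −1.50 ± 0.25, adjusted p = 0.00498). The groups did not overlap in any of the 3. Proteasome genes called higher numbered 3 without shCont replicate 1 or 2 and without shRPL6-2 replicate 2, 7 without shRPL6-1 replicate 3 and 4 without shRPL6-2 replicate 1. Of 89 ubiquitin ligase, conjugating and deubiquitinating genes 12 rose and 23 fell, with 18 higher and 9 lower after the correction. USP14, a deubiquitinase bound to the proteasome, had 22.4, 19.9 and 42.1 CPM with shRPL6-2, against 172, 167 and 98.8 CPM with shCont (log2 fold change −2.37 ± 0.33, adjusted p = 0.00268) and was lower in every alternative. Ubiquitin genes called lower numbered 7 without shCont replicate 1 and without shRPL6-2 replicate 2, 6 without shCont replicate 2, 43 without shCont replicate 3, 15 without shRPL6-1 replicate 3 and 8 without shRPL6-2 replicate 1.

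Genes of the secretory and endocytic routes were more often lower than higher before the correction, and in each of the 4 lists the difference was smaller after it. Of 50 genes of the COPII and COPI coats and the golgins 17 fell and 5 rose, but 7 fell and 4 rose after the correction. SEC23A, of the inner COPII coat, had 40.6, 30.9 and 32.3 CPM in shRPL6-2 libraries, against 125, 129.98 and 86.8 CPM in shCont libraries (log2 fold change −1.72 ± 0.20, adjusted p = 0.00146), and SEC24D, which picks cargo, had 41.3, 37.1 and 57.6 CPM with shRPL6-2, against 132, 119 and 78.4 CPM with shCont (log2 fold change −1.27 ± 0.24, adjusted p = 0.0067). The shRPL6-2 libraries were below all shCont libraries in both. Endosome, retromer and ESCRT genes had 16 of 50 lower and 4 higher, and 10 lower after the correction, with VPS13C, a lipid transfer protein, at 6.13, 8.002 and 9.97 CPM with shRPL6-2, against 36.1, 30.8 and 16.7 CPM with shCont (log2 fold change −1.80 ± 0.32, adjusted p = 0.00588). Lysosome genes had 12 of 48 lower and 3 higher, and 9 lower and 6 higher after the correction. Autophagy genes had 8 of 40 lower and 3 higher, and 5 lower and 6 higher after it, so the balance of that list turned. LAMP2, an abundant protein of the lysosome membrane, had 49.5, 35.5 and 60.7 CPM with shRPL6-2, against 152, 179 and 106 CPM with shCont (log2 fold change −1.59 ± 0.24, adjusted p = 0.00368). Coat and golgin genes called lower numbered 5 without shCont replicate 1 or 2, 9 without shRPL6-2 replicate 1 and 7 without shRPL6-2 replicate 2. Endosome, retromer and ESCRT genes called lower numbered 6 without shCont replicate 1, 5 without shCont replicate 2 and without shRPL6-2 replicate 2 and 8 without shRPL6-2 replicate 1. Lysosome genes called lower numbered 3 without shCont replicate 1 or 2 and without shRPL6-2 replicate 1 and 4 without shRPL6-2 replicate 2. Autophagy genes called lower numbered 1 without shCont replicate 1 or 2 and 2 without shRPL6-2 replicate 1 or 2.

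Genes of mitosis and DNA repair were more often lower than higher before the correction, and mitosis genes were not after it. Replication genes fell at nearly the share of all genes, 15.1% against 14.6%, and rose in 9.43% against 13.3%. Mitosis genes had 15 of 57 lower and 3 higher, but 1 lower and 3 higher after it. The 1 that kept its call in every alternative was STAG2, a cohesin subunit, at 40.4, 32.7 and 41.98 CPM in shRPL6-2 libraries, against 194, 155 and 103 CPM in shCont libraries (log2 fold change −1.97 ± 0.24, adjusted p = 0.00168). DNA repair genes had 21 of 58 lower and 7 higher, and 9 lower and 8 higher after it. ATR, the kinase that senses single-stranded DNA, had 18.5, 13.9 and 23.4 CPM with shRPL6-2, against 57.8, 55.9 and 29.9 CPM with shCont (log2 fold change −1.36 ± 0.29, adjusted p = 0.00934), and LIG4, the ligase of end joining, had 12.3, 10.3 and 11.6 CPM with shRPL6-2, against 39.1, 35.1 and 16.4 CPM with shCont (log2 fold change −1.41 ± 0.30, adjusted p = 0.00944). In these 3 genes the groups did not overlap. XRCC3, of homologous recombination, and CHEK2, a checkpoint kinase, were higher in every alternative, with XRCC3 at a log2 fold change of 1.19. Of 53 replication genes 8 fell and 5 rose, but 7 fell and 11 rose after the correction, with PCNA, the sliding clamp of DNA polymerase, at 69.7, 55.03 and 65.2 CPM with shRPL6-2, against 134, 133 and 101 CPM with shCont (log2 fold change −0.95 ± 0.17, adjusted p = 0.00565). Mitosis genes called lower numbered 2 without shCont replicate 1, 1 without shCont replicate 2 and without shRPL6-2 replicate 2, 29 without shCont replicate 3 and 6 without shRPL6-2 replicate 1. DNA repair genes called lower numbered 6 without shCont replicate 1 or 2 and without shRPL6-2 replicate 2 and 9 without shRPL6-2 replicate 1.

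Histone genes, whose main messengers lack a poly-A tail, rose in 11 of 49 and fell in 1, and rose in 4 of 49 after the correction. H2BC5, which is known to have a poly-A form, was the member higher in every alternative, at 33.4, 29.6 and 37.6 CPM in shRPL6-2 libraries, against 19.6, 18.5 and 16.7 CPM in shCont libraries (log2 fold change 0.87 ± 0.16, adjusted p = 0.00593). Histone genes called higher numbered 3 without shCont replicate 1 and without shRPL6-2 replicate 2 and 2 without shCont replicate 2. Nuclear pore and transport genes had 15 of 58 lower and 2 higher, and 5 in each direction after the correction. KPNA2, an importin, and TPR, of the nuclear basket, were lower in every alternative with log2 fold changes of −1.07 and −1.11. Nuclear pore and transport genes called lower numbered 3 without shCont replicate 1 or 2 and without shRPL6-2 replicate 2, 28 without shCont replicate 3 and 4 without shRPL6-2 replicate 1. The zinc finger genes of the ZNF family, mostly repressors of repeats and of transcription, had 39 of 395 higher and 42 lower, below the shares of all genes, but 70 higher and 12 lower after the correction. Splicing factors had 13 of 83 higher and 16 lower, and 17 higher and 12 lower after the correction. RNA polymerase II, Mediator and TFIID genes had 18 of 81 higher and 12 lower, and 22 higher and 5 lower after it. Splicing factors called lower numbered 0 without shCont replicate 1 or 2, and those called higher 2 and 3. ZNF genes called lower then numbered 6 and 7, and polymerase, Mediator and TFIID genes 3 and 2. Without shCont replicate 3 the lower counts of these lists were 28, 88 and 18.

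Small RNA silencing uses AGO proteins, which hold the guide, and TNRC6 proteins, which recruit the decay machinery. Of 14 tested genes listed for this pathway 6 fell and 1 rose, and 3 fell after the correction. HMGA2, listed here but not itself part of the silencing machinery, was 1 of the 6, and its call did not hold in every alternative. TNRC6A had 24.1, 20.7 and 45.1 CPM in shRPL6-2 libraries, against 102, 104 and 62.98 CPM in shCont libraries (log2 fold change −1.58 ± 0.31, adjusted p = 0.00748), and AGO4 had 4.04, 2.94 and 3.45 CPM with shRPL6-2, against 11.1, 10.8 and 8.02 CPM with shCont (log2 fold change −1.52 ± 0.29, adjusted p = 0.00688). Both were lower in every alternative and without overlap. AGO2, the member that cuts, was at 50.9, 44.6 and 85.2 CPM with shRPL6-2, against 134, 131 and 98.2 CPM with shCont (log2 fold change −1.01 ± 0.25, adjusted p = 0.0173). Its call did not hold in every alternative. Genes of this list called lower numbered 3 without shCont replicate 1 and without shRPL6-2 replicate 1 or 2 and 2 without shCont replicate 2. Of 60 mRNA decay genes 12 rose and 13 fell, and 14 rose and 5 fell after the correction. EXOSC4, of the exosome that trims RNA from its 3′ end, rose by 1.27 on the log2 scale, and RC3H2, which destabilises stem-loop messengers, had a log2 fold change of −1.25.

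Metabolism outside lipid synthesis moved both ways. Of 30 genes of serine, folate and nucleotide synthesis 10 rose and 5 fell, and 12 rose and 2 fell after the correction. CAD, which starts pyrimidine synthesis, had 211, 232 and 275 CPM in shRPL6-2 libraries, against 83.8, 87.01 and 108 CPM in shCont libraries (log2 fold change 1.37 ± 0.17, adjusted p = 0.00173), and IMPDH2, which commits purines to guanine nucleotides, had 243, 307 and 257 CPM with shRPL6-2, against 89.1, 86.7 and 141 CPM with shCont (log2 fold change 1.35 ± 0.21, adjusted p = 0.00368). ADSS2, which commits them to adenine nucleotides, had 51.8, 43.8 and 50.6 CPM with shRPL6-2, against 119, 123 and 83.1 CPM with shCont (log2 fold change −1.15 ± 0.18, adjusted p = 0.00432). The shRPL6-2 libraries lay above all shCont libraries for CAD and IMPDH2, and below them for ADSS2. Of 19 genes of gluconeogenesis, glycogen and the pentose phosphate route 5 fell and 1 rose, against 4 and 3 after the correction, with UGP2, which makes UDP-glucose, at 65.9, 43.1 and 48.9 CPM with shRPL6-2, against 131, 107 and 96.9 CPM with shCont (log2 fold change −1.08 ± 0.21, adjusted p = 0.00765), and with PGM2 and GBE1 also lower in every alternative. IDH1, the cytosolic isocitrate dehydrogenase, stood at 51.4, 43.9 and 44.6 CPM with shRPL6-2, against 168, 194 and 124 CPM with shCont (log2 fold change −1.80 ± 0.21, adjusted p = 0.00146). In fatty acid oxidation and peroxisomes 8 of 42 fell and 5 rose, against 7 and 3 after the correction, with CAT and HSD17B4, which act in peroxisomes, among those lower in every alternative. Glycolysis had 8 of 33 lower and 3 higher, and 7 lower and 3 higher after it.

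Of 46 antioxidant genes 7, or 15.2%, were higher and 10, or 21.7%, were lower, against 13.3% and 14.6% of all genes, and 4 higher and 8 lower after the correction. PRDX6 and PRDX4, both peroxiredoxins that remove peroxide, went in different directions, with PRDX6 at 307, 351 and 344 CPM in shRPL6-2 libraries, against 556, 561 and 672 CPM in shCont libraries (log2 fold change −0.84 ± 0.14, adjusted p = 0.00499) and PRDX4 at 221, 279 and 167 CPM with shRPL6-2, against 60.2, 55.2 and 90.6 CPM with shCont (log2 fold change 1.69 ± 0.24, adjusted p = 0.00283). GCLC, which limits glutathione synthesis, was lower (−1.05) and GPX4, which repairs lipid peroxides, higher (1.07). The liver-specific lists were mostly silent. Of 70 genes for secreted hepatocyte proteins 15 had enough reads to be tested, of which 1 rose and 2 fell (0 and 1 after the correction), and of 58 hepatocyte transcription factor and metabolism genes 21 were tested, of which 1 rose and 1 fell, before and after it.

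Receptors that hold cells to the matrix and to each other fell more often than they rose. Of 19 tested integrins 7 fell and 1 rose, before and after the correction, with a median of −0.67. ITGA2, a collagen receptor subunit, had 10.6, 20.7 and 19.6 CPM in shRPL6-2 libraries, against 67.4, 75.4 and 41.2 CPM in shCont libraries (log2 fold change −1.86 ± 0.28, adjusted p = 0.00368), and ITGAV, of the vitronectin receptors, had 47.96, 37.9 and 47.4 CPM with shRPL6-2, against 138, 135 and 68.98 CPM with shCont (log2 fold change −1.36 ± 0.25, adjusted p = 0.00597). ITGB4, of the laminin receptor in hemidesmosomes, was the other member lower in every alternative. The groups did not overlap in ITGA2 and ITGAV. Integrins called lower numbered 4 without shCont replicate 1 or 2 and without shRPL6-2 replicate 2. Of 37 cadherin, tight junction and desmosome genes 11 fell and 0 rose, and 10 fell and 3 rose after the correction. CLDN1, a claudin that seals tight junctions, had 10.7, 11.3 and 11.2 CPM with shRPL6-2, against 37.6, 40.9 and 35.9 CPM with shCont (log2 fold change −1.79 ± 0.15, adjusted p = 0.000324), and CGN, cingulin, had 0.626, 0.817 and 0.5998 CPM with shRPL6-2, against 2.46, 2.35 and 3.78 CPM with shCont (log2 fold change −2.06 ± 0.34, adjusted p = 0.00449). Both were among 9 members lower in every alternative. Leaving out any 1 library moved the count of junction genes called lower by no more than 1.5 times. Without shCont replicate 3, 5 were higher. With shRPL6-1 against shCont, 2 junction genes were lower and 1 higher, with a median of −0.04. In the direct contrast of the hairpins 1 junction gene was lower with shRPL6-2 and 0 were higher.

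The matrix and the cytoskeleton showed smaller shares. Extracellular matrix genes had 6 of 51 lower and 3 higher, and 6 lower and 6 higher after the correction, with NID1 and FBN1 (fibrillin) lower and COL7A1, the collagen of anchoring fibrils, higher in every alternative. COL7A1 had 859.8, 1002 and 823 CPM in shRPL6-2 libraries, against 369, 365 and 539 CPM in shCont libraries (log2 fold change 1.08 ± 0.19, adjusted p = 0.00562). Actin and focal adhesion genes had 16 of 77 lower and 11 higher, and 9 lower and 12 higher after the correction. MYL12A, a myosin light chain, had 146, 125 and 139 CPM with shRPL6-2, against 350.5, 338 and 267 CPM with shCont (log2 fold change −1.22 ± 0.16, adjusted p = 0.00196), and LIMK1, the kinase that inactivates cofilin, had 90.8, 109.8 and 80.7 CPM with shRPL6-2, against 41.6, 40.7 and 55.3 CPM with shCont (log2 fold change 1.03 ± 0.18, adjusted p = 0.00536). None of these 3 overlapped. Of 59 kinesin, dynein and tubulin genes 17 fell and 8 rose, against 13 and 9 after the correction, with KIF3A, the motor of cilia, at −1.86 and KIF1C at 1.39 on the log2 scale, both in every alternative.

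Among signalling genes, JAK-STAT and cytokine receptor genes had 11 of 35 lower and 1 higher, and 5 lower after the correction. JAK1, the kinase shared by interferon and interleukin receptors, had 129, 102 and 124 CPM in shRPL6-2 libraries, against 284, 254 and 174 CPM in shCont libraries (log2 fold change −1.01 ± 0.19, adjusted p = 0.00683), and IL13RA1, a receptor of interleukins, had 35.8, 28.6 and 37.04 CPM with shRPL6-2, against 73.7, 73.6 and 61.7 CPM with shCont (log2 fold change −1.04 ± 0.16, adjusted p = 0.00368). The groups did not overlap in either gene. Growth factor receptor and MAPK genes had 14 of 54 lower and 4 higher, and 5 in each direction after the correction. SOS2, which loads RAS with GTP, had 3.76, 3.27 and 4.198 CPM with shRPL6-2, against 13.4, 13.9 and 7.96 CPM with shCont (log2 fold change −1.65 ± 0.26, adjusted p = 0.00408). PI3K, mTOR and AMPK genes had 14 of 50 lower and 6 higher, and 5 lower and 6 higher after it, with PIK3CB, a catalytic subunit, at a log2 fold change of −1.25. For TGF-beta and BMP genes the count was 7 of 38 lower and 1 higher, and 6 lower and 3 higher after the correction. For Hippo genes it was 8 of 28 lower and 7 higher, and 3 lower and 8 higher after it, and for Wnt genes 4 of 37 in each direction, and 1 lower and 4 higher after it. JAK-STAT and cytokine receptor genes called lower numbered 4 without shCont replicate 1 or 2 and without shRPL6-2 replicate 1 or 2. Growth factor receptor and MAPK genes called lower numbered 3 without shCont replicate 1 or 2 and without shRPL6-2 replicate 2 and 5 without shRPL6-2 replicate 1. PI3K, mTOR and AMPK genes called lower numbered 3 without shCont replicate 1 and without shRPL6-2 replicate 2, 2 without shCont replicate 2 and 6 without shRPL6-2 replicate 1.

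Interferon-stimulated genes, a set that cells raise on sensing virus or foreign RNA, rose in 11 of 49 and fell in 1, with a median of 0.58, and 14 rose after the correction. The values were uneven within both groups. OASL had 928, 1264 and 517 CPM in shRPL6-2 libraries, against 129, 136 and 475 CPM in shCont libraries (log2 fold change 1.87 ± 0.50, adjusted p = 0.0218), and ISG20 had 99.5, 139 and 35.4 CPM with shRPL6-2, against 10.5, 9.35 and 44.7 CPM with shCont (log2 fold change 2.09 ± 0.64, adjusted p = 0.0337). IRF7, the factor that drives them, had 48.3, 72.3 and 20.9 CPM with shRPL6-2, against 8.39, 9.41 and 22.2 CPM with shCont (log2 fold change 1.82 ± 0.53, adjusted p = 0.029). In ISG20 and IRF7 shRPL6-2 replicate 3 lay below shCont replicate 3, so the groups overlapped. Interferon-stimulated genes called higher numbered 1 without shCont replicate 1 or 2, 20 without shCont replicate 3, 7 without shRPL6-1 replicate 3, 4 without shRPL6-2 replicate 1 and 2 without shRPL6-2 replicate 2. IFIT2 alone rose in every alternative, at 232, 192 and 196 CPM with shRPL6-2, against 124, 117 and 122 CPM with shCont (log2 fold change 0.77 ± 0.14, adjusted p = 0.00659), and SLFN5 fell in every alternative. NF-kB and inflammatory genes had 4 of 35 lower, or 11.4%, and 1 higher, below the shares of all genes. After the correction 7 were lower and 1 higher. The chemokine CXCL8 (−2.47) and BIRC3, an inhibitor of cell death (−1.23), were lower in every alternative.

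**Figure D4:**
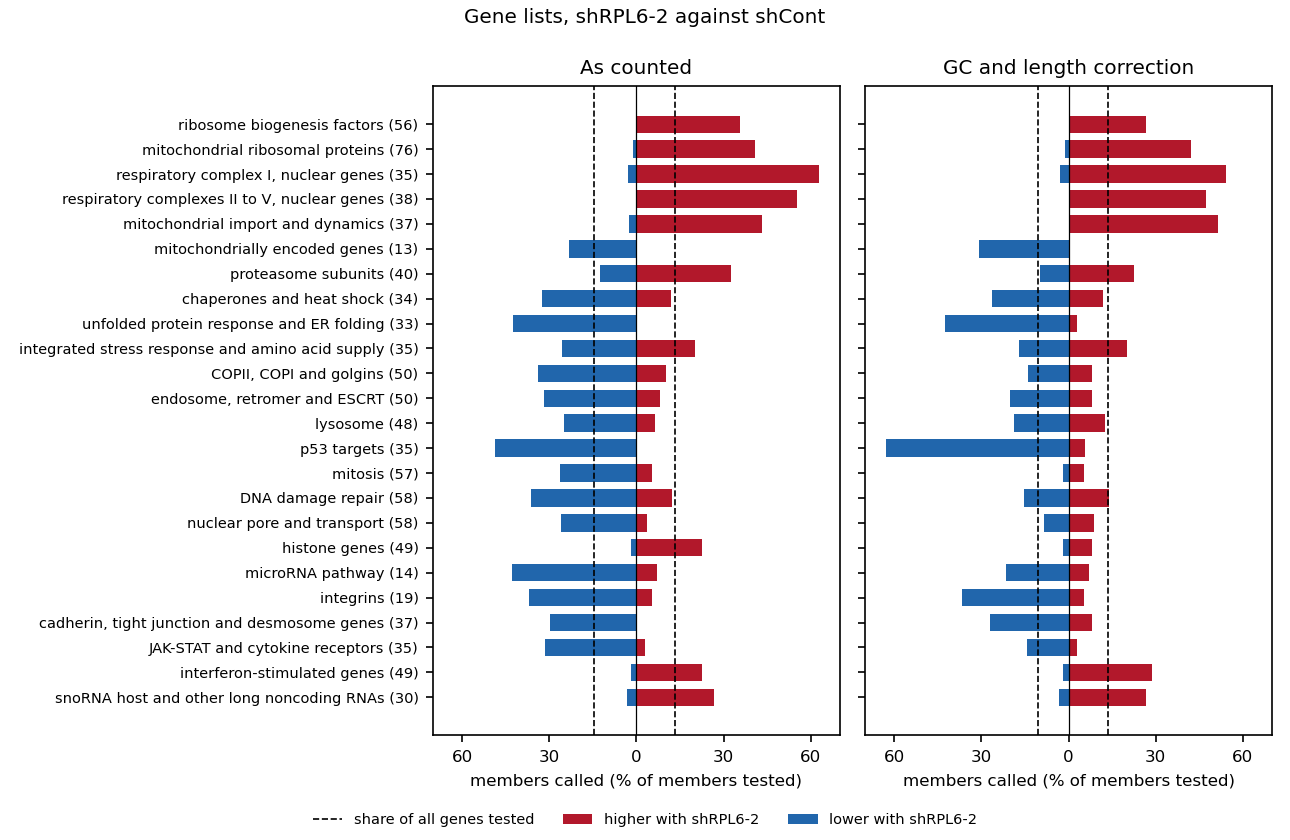
Percent of the tested members of each list called higher (red, right) or lower (blue, left) with shRPL6-2 against shCont, from the counts as deposited and after correction for GC content and length, with dashed lines at the share of all genes tested. The p53 list stood at 17 of 35 lower, complex I at 22 of 35 higher and mitosis at 15 of 57 lower, the last falling to 1 of 57 after the correction.

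The contrast with shRPL6-1 asked which of these changes depend on the hairpin used. With shRPL6-2, 11 genes were higher than with shRPL6-1, which is 0.0681% of those tested, and 51 were lower, which is 0.316%. PLRG1, a splicing factor, had 7.66, 6.61 and 8.997 CPM with shRPL6-2, against 42.6, 50.8 and 43.9 CPM with shRPL6-1 (log2 difference −2.56 ± 0.23, adjusted p = 0.0018). NID1 had 1.18, 1.31 and 1.799 CPM with shRPL6-2, against 6.07, 7.09 and 8.08 CPM with shRPL6-1 (log2 difference −2.30 ± 0.24, adjusted p = 0.00389), and CLDN1 had 10.7, 11.3 and 11.2 CPM with shRPL6-2, against 48.2, 56.4 and 55.2 CPM with shRPL6-1 (log2 difference −2.27 ± 0.15, adjusted p = 0.000251). The hairpin groups did not overlap in these genes. CNN3, a calponin that binds actin, had 11.3, 9.47 and 11.995 CPM with shRPL6-2, against 34.4, 33.1 and 38.1 CPM with shRPL6-1 (log2 difference −1.69 ± 0.18, adjusted p = 0.00389), and PSG4, a glycoprotein of the placenta, had 1.46, 1.63 and 1.42 CPM with shRPL6-2, against 5.82, 4.57 and 7.67 CPM with shRPL6-1 (log2 difference −1.99 ± 0.32, adjusted p = 0.0269). Against shCont, which both hairpins share as control, the log2 fold changes with shRPL6-2 and with shRPL6-1 were −2.39 and 0.16 for PLRG1, −2.59 and −0.29 for NID1, −1.79 and 0.48 for CLDN1, −2.32 and −0.64 for CNN3, and −0.29 and 1.70 for PSG4. PSG4 was not called against shCont with shRPL6-2, and its call between the hairpins ended when any 1 library other than shCont replicate 3 was left out (adjusted p 0.0555 to 0.171).

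In the other direction, TYMS, the thymidylate synthase that makes dTMP, had 173, 136 and 155 CPM with shRPL6-2, against 35.7, 34.6 and 44.9 CPM with shRPL6-1 (log2 difference 2.01 ± 0.17, adjusted p = 0.00116). RPS24, a protein of the small ribosomal subunit, had 695, 655 and 675 CPM with shRPL6-2, against 226, 156 and 218 CPM with shRPL6-1 (log2 difference 1.75 ± 0.17, adjusted p = 0.00213). ACVR1B, an activin receptor, had 24.3, 28.1 and 25.6 CPM with shRPL6-2, against 9.201, 8.996 and 11.5 CPM with shRPL6-1 (log2 difference 1.39 ± 0.17, adjusted p = 0.00932). The hairpin groups were apart in each. EMC10, a subunit of the same membrane insertion complex as EMC6, and FAAP24, of the Fanconi anaemia core complex, differed by 1.45 and 1.23 on the log2 scale. Against shCont, TYMS, RPS24, ACVR1B and FAAP24 were not called with shRPL6-2, at log2 fold changes of 0.07, −0.07, −0.43 and 0.33, and they stood at −1.94, −1.82, −1.81 and −0.90 with shRPL6-1. EMC10 rose with shRPL6-2 (0.77, adjusted p = 0.0152), a call lost without shCont replicate 1 or 2 or shRPL6-2 replicate 2. Between the hairpins, the calls of EMC10, ACVR1B and FAAP24 ended without shRPL6-2 replicate 1 (adjusted p 0.0530, 0.0524 and 0.0892) and without at least 2 of the shRPL6-1 libraries. The number of lower genes was 4, 6 and 32 without shRPL6-2 replicates 1, 2 and 3, 20, 19 and 151 with shCont replicate 1, 2 or 3 left out in turn, and 10, 10 and 7 when a shRPL6-1 library was left out.

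Matches to the hairpin seeds were counted in the annotated 3′ UTR of 12665 tested genes. The shRPL6-2 seed, read on the antisense strand as the study lists it, pairs with GCTTATT, and 1430 genes, or 11.3%, held at least 1 copy of it on the sense strand of the UTR. Which strand is loaded in these cells was not measured. Of genes with 0 copies 14.1% were lower with shRPL6-2 than with shCont, of those with 1 copy 34.7%, and of those with 2 or more 46.8%. The median log2 fold changes were −0.01, −0.48 and −0.68. With shRPL6-1, which has another seed, the medians of the same genes against shCont were −0.008, −0.21 and −0.29. Matched genes also had longer UTRs, with a median of 3001 bases against 926 in unmatched genes, and a lower median GC content, 42.3% against 50.8%. After the correction for GC content and length the medians were 0.05 with 0 copies, −0.10 with 1 and −0.11 with 2 or more. In the contrast with shRPL6-1 the medians were 0.00023 with 0 copies, −0.26 with 1 and −0.38 with 2 or more, and 20 of 11235, 19 of 1180 and 9 of 250 genes were lower. The same gradient ran through this contrast, with a median of −0.19 in the quintile of lowest GC content and 0.21 in that of the highest. After the correction the medians between the hairpins were 0.03, −0.08 and −0.14 for 0, 1 and 2 or more copies, and 55, 47 and 23 genes were lower. The shCont libraries enter these calls through the shared spread, and with the 6 hairpin libraries alone 24, 25 and 13 genes were lower. Counted the other way, 28 of the 48 lower genes that have an annotated UTR, or 58.3%, held the shRPL6-2 match, and 0 of the 7 higher ones did. Of those 7, RPS24, FAAP24 and TIMMDC1 held TTCGCAA, the match of the shRPL6-1 seed, which 0 of the 48 held. Within quartiles of UTR length, the share of genes lower than with shRPL6-1 was 0, 2.04, 2.78 and 1.70% among those with the shRPL6-2 match, from the shortest to the longest quartile, and 0.0640, 0.199, 0.285 and 0.175% among those without. A match is a description of the letters and no evidence of a site.

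**Figure D5:**
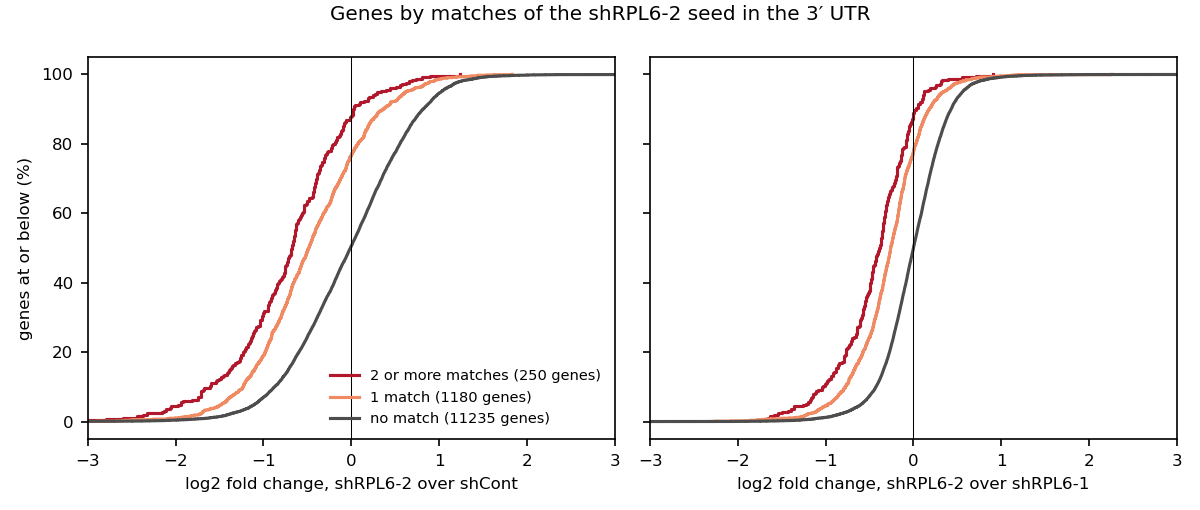
Percent of genes at or below each log2 fold change, for genes with 0, 1 and 2 or more copies of the shRPL6-2 seed match in the 3′ UTR, for shRPL6-2 against shCont (left) and against shRPL6-1 (right), drawn between −3 and 3. Median differences against shRPL6-1 were 0.00023 with 0 copies, −0.26 with 1 and −0.38 with 2 or more.

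Among the 14 genes with the largest falls that have an annotated UTR, 7 held the match, and among the 11 with the largest rises 0 did. Windows around the matches of SH2B3, NID1, CLDN1, CNN3 and ACADM are given, from the GENCODE transcripts on GRCh38, 5′ to 3′ on the strand of the gene with the match in capitals, because these genes were both lower than with shCont and lower than with shRPL6-1 or held more than 1 copy.
SH2B3 copy at chr12:111448924-111448930 (+): cttaaccactGCTTATTtcagtgcact
SH2B3 copy at chr12:111449339-111449345 (+): gcatctaatgGCTTATTaaattatccc
SH2B3 copy at chr12:111450423-111450429 (+): aaaggagaaaGCTTATTatggaaagtc
NID1 copy at chr1:235975925-235975931 (-): cactgaaggtGCTTATTaactgttctc
CLDN1 copy at chr3:190306582-190306588 (-): gctgctgtaaGCTTATTgcttcatctg
CNN3 copy at chr1:94897633-94897639 (-): acactattaaGCTTATTgtacttttaa
CNN3 copy at chr1:94897322-94897328 (-): ctaaactcatGCTTATTgctaaatgtg
ACADM copy at chr1:75762888-75762894 (+): ctaagcaactGCTTATTatagtagttt
ACADM copy at chr1:75763487-75763493 (+): attgttcagtGCTTATTatcatatctt
SH2B3 had 3.48, 2.94 and 2.77 CPM with shRPL6-2, against 7.76, 9.06 and 12.4 CPM with shRPL6-1 (log2 difference −1.66 ± 0.24, adjusted p = 0.0169). ACADM had a log2 difference of −1.59 between the hairpins and was not called in that contrast. Of all 2112 lower genes with an annotated UTR, 24.95% held the match. Of the 17 lower p53 targets 2 held it, and of the 14 lower unfolded protein response genes 2. Of the 6 lower genes of the microRNA list, HMGA2 included, 3 held it. Larger shares than that of all lower genes included junction genes at 5 of 11, TGF-beta and BMP genes at 4 of 7 and PI3K, mTOR and AMPK genes at 6 of 14. Smaller ones included DNA repair genes at 3 of 21, chaperones at 2 of 11 and translation factors at 0 of 6. Others lower than with shRPL6-1 that held the match, named after their values were seen, were TMEM65, ERRFI1, STAG2, FBN1, TFDP1 (the partner of E2F factors), GLUD1 and PRDX6. Their log2 differences from shRPL6-1 ran from −1.54 for TMEM65 to −0.89 for PRDX6.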

How the data were processed

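RNA from MHCC97H cells was sequenced in 9 libraries, 3 for each of shRPL6-2, shRPL6-1 and shCont, after poly-A selection with a strand-marking kit. The authors deposited 1 table of raw gene counts and FPKM values on GRCh38, and per the submitters' processing notes used CASAVA 1.8, HISAT2, StringTie and edgeR. The annotation, the counting program and its strand setting are not named in any source consulted. Overlapping and antisense genes are therefore uncertain. The deposited counts were tested, and the deposited FPKM values were used only to check that the columns belong together. Counts were filtered (filterByExpr), scaled by TMM and fitted with the edgeR quasi-likelihood test (edgeR 4.0.16, limma 3.58.1, R 4.3.3) with 1 term per group over all 9 libraries, and two-sided p-values were adjusted (Benjamini-Hochberg) over 16146 genes, at a threshold of 0.05. GC content, transcript length and 3′ UTRs came from GENCODE v29, which gave values for 99.1% of tested genes. A correction for GC content and length used a spline with 5 degrees of freedom for each library. The 19 alternatives also included DESeq2 1.42.0, other scalings and filters, a block for the replicate number, and each library left out. Scripts were tested on simulated data. Named genes were the 15 largest changes of protein-coding genes in each direction, outside the sterol, fatty acid and ribosomal protein lists, without overlap of libraries and with a mean log2 CPM of 1 or more, up to 3 genes of each direction and list with the smallest adjusted p, and the 5 largest differences between hairpins in each direction. The comparison, the 60 lists and the rules were chosen with earlier results of these data known.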

Additional observations from a re-analysis of the deposited data

Results flagged for a closer look

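Between the hairpins, 51 genes were lower and 11 higher with shRPL6-2 than with shRPL6-1 in the test of the difference itself (edgeR quasi-likelihood test, Benjamini-Hochberg adjusted p under 0.05). Of the genes named in that contrast, TYMS was higher by 2.01 on the log2 scale, RPS24 by 1.75, EMC10 by 1.45, ACVR1B by 1.39 and FAAP24 by 1.23, and the libraries of the hairpins did not overlap in any of these 5. PLRG1 differed by −2.56, NID1 by −2.30, CLDN1 by −2.27, PSG4 by −1.99 and CNN3 by −1.69, likewise with no overlap between the 3 shRPL6-2 and the 3 shRPL6-1 libraries.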

How the results depend on the processing

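The number of genes called moved more than the direction of the named ones. Against shCont, with 2145 genes higher and 2354 lower, the fit of the 6 libraries alone gave 1317 higher and 1508 lower, the replicate block 1035 and 1064, no filter 1547 and 1510 of 32426 genes, and the block with the GC and length correction 1500 and 1103. Leaving out 1 library gave 650 to 3636 higher and 728 to 3565 lower genes. Against shRPL6-1, with 11 genes higher and 51 lower, DESeq2 gave 88 and 221, the GC correction 45 and 145, the GC and length correction 44 and 131, the replicate block 2 and 3, the block with that correction 12 and 32, and no filter 9 and 30. Leaving out 1 library gave 3 to 43 higher and 4 to 151 lower genes. Libraries with the same replicate number did not deviate together (r −0.034, −0.401 and −0.515 across genes for numbers 1 to 3 of shRPL6-2 and shCont). These deviations also followed GC content within each library, so they cannot settle whether the number is a pairing. The main fit did not treat it as one. Of the genes named from the lists, SLC30A1 turned to 0.047 with the GC correction, 0.15 with the GC and length correction and 0.16 with the block added, and WNT5A to 0.0079 and 0.012 under the last 2 of these, none of them then called, and no other named gene changed sign in a called direction. The cause of these moves was not tested. With 3 libraries a group, an exact permutation test of a single value cannot go below p = 0.1.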
